A study of Saccharomyces cerevisiae with 36 samples.

Results

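The yeast Saccharomyces cerevisiae was grown on ethanol as the limiting nutrient in a pair of chemostat types, a mini-chemostat labelled MC and a reactor of 1 L labelled DASGIP, and the RNA of both was sequenced. The comparison takes every gene in 6 libraries, 3 from each vessel, of the 36 libraries in the series. They were chosen by their labels alone: strain HAP1-TAP, ethanol limitation, and the vessel. HAP1-TAP derives from CEN.PK 113-5D and carries a CBP-ProtA purification tag at the end of Hap1p, a regulator that responds to haem. Both groups had 0.5% (w/v) ethanol as carbon source and were sampled after 48 to 60 h of steady readings, and the design text calls the 3 cultures of a group biological triplicates. A further 3 libraries of untagged CEN.PK 113-5D came from the mini-chemostat under the same limitation. The other limitations were nitrogen (with glucose in excess), glucose, and oxygen together with glucose, each with 3 libraries per vessel for HAP1-TAP. The concentration of the carbon source was the same in both vessels under each limitation but differed among the limitations. It was lowest for ethanol and by far the highest for nitrogen. The part of this concentration in differences between limitations was not tested. No source used here gives the feed rate, the volume of the mini-chemostat or the number of clones behind the strain. No label names a batch, so a vessel difference and a difference between runs cannot be told apart.

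In a chemostat a steady feed sets the growth rate and the scarce nutrient sets the cell density. On ethanol, yeast respires and must build sugars through the glyoxylate cycle and gluconeogenesis. Osmotic stress acts through the Hog1 kinase, which raises glycerol synthesis and uptake, while genes for poor nitrogen sources are held down by nitrogen catabolite repression and are released through the GATA factors Gln3 and Gat1 when good nitrogen sources run short. After division the daughter cell makes the enzymes that cut it free from its mother.

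The 6 libraries held 15237396 to 20739308 counted reads. All 7 measured MATa genes had reads in every group, and their summed level, in CPM (read counts scaled to equal library totals), was 493 to 645 CPM in the 1 L vessel and 514 to 545 CPM in the mini-chemostat, and none of the 7 MATa, 4 MATalpha or 5 meiotic marker genes differed between the vessels in the test below. The 1 L library of replicate 1 stood apart from its group: across genes its log2 CPM correlated at r = 0.986 and 0.988 with replicates 2 and 3, which correlated with each other at 0.996, as did the mini-chemostat libraries (0.996 for each pair). Results that lean on that library are given below with and without it. Small RNA genes took 11.7 ± 0.386% of the reads in the 1 L vessel and 15.5 ± 0.473% in the mini-chemostat (mean ± SD, n = 3; exact permutation test, two-sided, p = 0.1, the smallest that 3 against 3 allows). Mitochondrially encoded genes took 34.5 ± 3.05% and 35.0 ± 2.86% (exact permutation p = 0.8).

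Differences were tested with edgeR's quasi-likelihood test in a model of all 36 libraries, and a gene was called when its adjusted p over the 6612 genes tested was below 0.05. Of these genes 782 (11.8%) were called, 385 higher (5.82%) and 397 lower (6%) in the mini-chemostat. Most differences were small: 93.8% of all genes tested lay within 1.5-fold, and so did 551 of the 782 called. At least 2-fold differences were called for 84 genes (1.27%), 52 higher (0.786%) and 32 lower (0.484%). The median difference of all genes tested was 0.0008 on the log2 scale. The number of calls rested partly on single libraries, with 986 calls without 1 L replicate 1, 466 without 1 L replicate 3, 474 without mini-chemostat replicate 1 and 483 without mini-chemostat replicate 3. Counts are relative to all RNA of a culture, so a larger share of cells expressing a gene and more RNA per cell cannot be told apart.

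**Figure D1:**
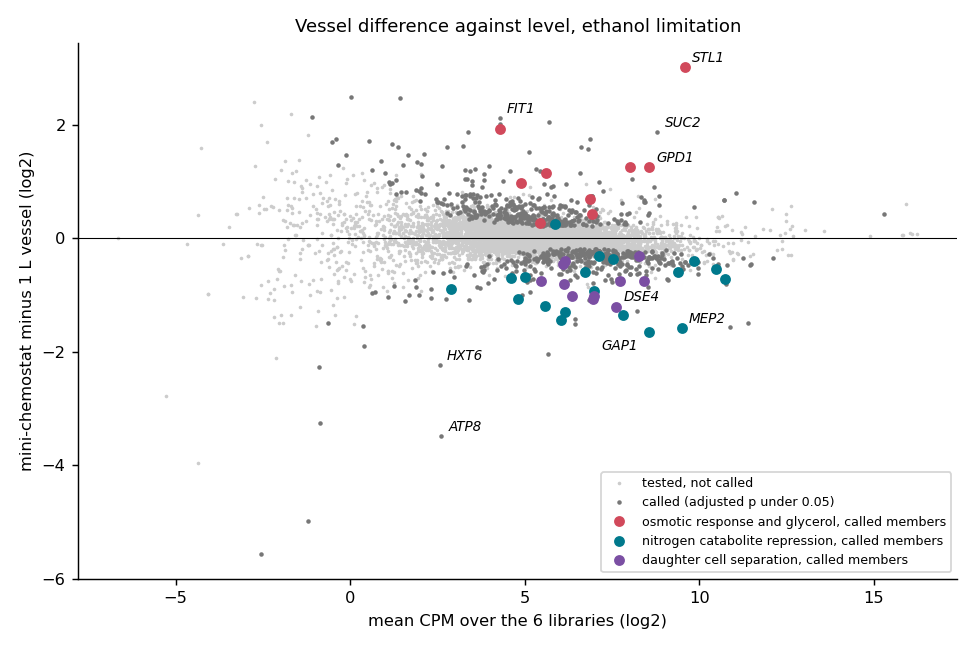
Vessel difference (log2, mini-chemostat minus 1 L vessel, ethanol limitation) against mean level (log2 CPM over 6 libraries) for the 6612 genes tested, with called members of 3 lists in colour. STL1 lies highest of the named genes at 3.01, the called osmotic and glycerol genes lie above 0, and the called daughter separation genes and 18 of 19 called nitrogen genes lie below 0.

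The largest called rise of all was that of a glycerol transporter, and genes of glycerol synthesis rose by less. STL1 (YDR536W, chromosome IV, 1508005 to 1509714, build R64), the glycerol and proton symporter of the plasma membrane, measured 153, 168 and 192 CPM in the 1 L vessel and 1322, 1316 and 1500 CPM in the mini-chemostat. The groups were far apart, and STL1 rose 8.07-fold (log2 3.01 ± 0.25 SE, adjusted p = 2.14e-09). GPD1 (YDL022W), the glycerol 3-phosphate dehydrogenase that commits carbon to glycerol, measured 294, 179 and 200 CPM against 526, 540 and 531 CPM. It rose by 1.25 ± 0.15 (adjusted p = 1.07e-06), and by 1.49 without 1 L replicate 1, its highest 1 L library. Both glycerol 3-phosphate phosphatases, which complete glycerol synthesis, rose as well. GPP1 measured 126.5, 149.5 and 180 CPM against 396, 354 and 335 CPM (1.25 ± 0.21, adjusted p = 0.000185). GPP2 measured 23.1, 15.9 and 20.8 CPM against 43.5, 35.8 and 38.0 CPM (0.97 ± 0.21, adjusted p = 0.00266). As near-identical paralogs they may share reads.

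In the list of 24 osmotic response and glycerol genes, 9 rose and none fell, with a median of 0.25 against 0.0008 over all genes, where 5.82% rose. The others that rose were YJL107C (1.93 ± 0.18), the methylglyoxal reductase GRE2 (1.15 ± 0.18), the aldose reductase GRE3 (0.70 ± 0.16), the dihydroxyacetone kinase DAK1 (0.42 ± 0.09) and HOT1 (0.26 ± 0.07), the transcription factor through which Hog1 acts at STL1 and GPD1. HOT1 measured 39.5, 40.6 and 39.4 CPM against 47.4, 48.2 and 47.6 CPM, a small difference with tight replicates. Without 1 L replicate 1, 13 of the 24 rose and the median was 0.44. That library was the highest 1 L library for GRE2 at 42.9 CPM, against 22.9 and 24.5 CPM in replicates 2 and 3. In the mini-chemostat GRE2 measured 63.9, 72.5 and 65.4 CPM, above all 3.

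The stretch before STL1 and GPD1 shows what lies upstream of these 2 genes. The windows are the 300 bases that start 400 bases before the reading frame, 5′ to 3′ on the gene's own strand, from the RefSeq genome of build R64. Capitals mark AGGGG, the stress element of the regulators Msn2 and Msn4, on either strand (CCCCT on the strand shown). Such a match is in the windows of 12 of the 24 osmotic and glycerol genes and of 4 of the 9 that rose, and in 23.8% of the windows of 5831 genes tested.
STL1, chrIV:1507605-1507904, plus strand: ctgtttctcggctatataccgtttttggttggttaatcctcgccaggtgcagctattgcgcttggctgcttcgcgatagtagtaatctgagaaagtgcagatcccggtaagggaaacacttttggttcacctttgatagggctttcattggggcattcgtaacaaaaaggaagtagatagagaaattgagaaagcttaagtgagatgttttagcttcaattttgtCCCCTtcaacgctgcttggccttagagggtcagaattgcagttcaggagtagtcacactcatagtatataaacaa
GPD1, chrIV:411425-411724, plus strand: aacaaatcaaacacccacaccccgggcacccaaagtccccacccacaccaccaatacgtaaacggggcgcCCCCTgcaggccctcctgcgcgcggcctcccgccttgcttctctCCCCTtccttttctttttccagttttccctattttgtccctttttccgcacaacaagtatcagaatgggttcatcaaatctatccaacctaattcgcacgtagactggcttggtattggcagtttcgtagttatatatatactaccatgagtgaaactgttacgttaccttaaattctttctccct

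Several of the largest rises lay side by side in the genome. FIT1 (YDR534C, chromosome IV, 1503314 to 1504900), a cell wall mannoprotein that holds iron-bearing siderophores, lies 3104 bases from STL1. It measured 5.05, 6.40 and 10.9 CPM against 30.4, 30.7 and 33.5 CPM and rose by 2.11 ± 0.23 (adjusted p = 4.21e-07). YDR535C, which by its systematic name lies between FIT1 and STL1, measured 3.20, 3.87 and 3.11 CPM against 11.2, 9.96 and 9.87 CPM and rose by 1.60 ± 0.19. The genes on either side of the group did not pass the test: HSP31 had a difference of -0.25 and PAD1 one of -0.03. PRM10 (YJL108C, chromosome X, 217705 to 218856), a membrane protein regulated by pheromone, overlaps YJL107C by 4 bases on the same strand. PRM10 measured 6.45, 7.91 and 9.24 CPM against 35.1, 28.9 and 30.7 CPM (2.01 ± 0.15, adjusted p = 7.18e-10). YJL107C measured 5.87, 9.91 and 8.69 CPM against 30.4, 29.98 and 32.3 CPM. Whether reads were counted by strand is not given in the sources used here, so values of overlapping genes are uncertain.

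Among the other large rises, SUC2 (YIL162W), the invertase that splits sucrose and is repressed by glucose, measured 175, 180 and 223 CPM against 710, 651 and 742 CPM (1.86 ± 0.20, adjusted p = 1.6e-07). PNS1 (YOR161C), a membrane protein related to choline transporters, measured 76.3, 48.6 and 45.5 CPM against 166, 162 and 177 CPM (1.56 ± 0.15). YOR161W-A, placed beside PNS1 on the other strand by its name, rose by 1.87 ± 0.20. CIN5, a bZIP transcription factor linked to salt tolerance, measured 5.05, 3.38 and 5.43 CPM against 14.4, 12.9 and 15.2 CPM (1.62 ± 0.21, adjusted p = 5.43e-06). YHR033W and YGL177W, whose roles are not described here, rose by 1.61 ± 0.19 and 1.52 ± 0.23. In each of the 12 largest rises every mini-chemostat library was above every 1 L library, which the rule for naming genes required; over all genes this held for 1058 (16%), and the reverse for 952 (14.4%). The rule also asked for a mean of at least 5 CPM over the 6 libraries, which YOR161W-A, YDR535C, CIN5, ATP8 and HXT6 met only through the vessel where they were higher.

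**Figure D2:**
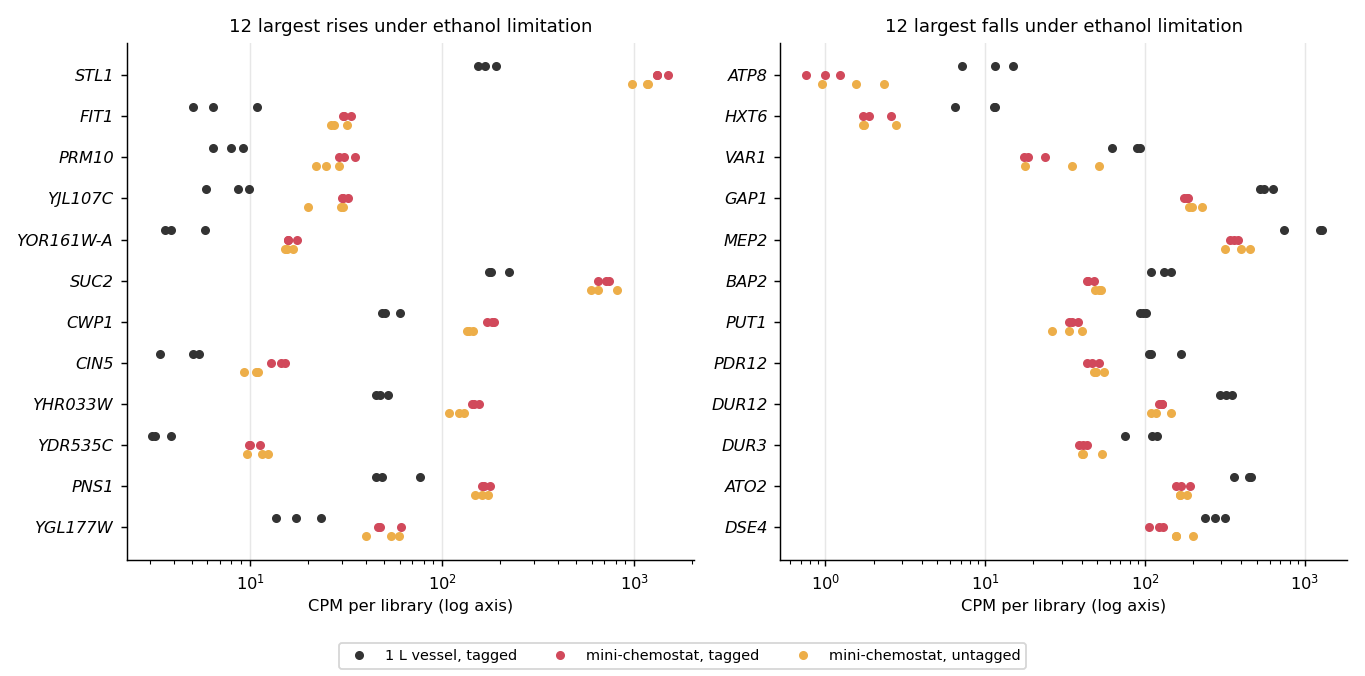
CPM in each library (log axis, 1 point per library) for the 12 largest rises and 12 largest falls among reading frames called, with a mean of at least 5 CPM over the 6 libraries and no overlap between the 3 and 3 tagged libraries. STL1 moved from 153 to 192 CPM in the 1 L vessel to 1316 to 1500 CPM in the mini-chemostat, and the untagged mini-chemostat libraries lie on the side of the tagged mini-chemostat ones for all 24 genes. The genes were chosen by their difference from the same 1 L libraries, so the side of the untagged libraries is not independent of that choice.

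Genes for the uptake and breakdown of poor nitrogen sources were lower in the mini-chemostat. GAP1 (YKR039W, chromosome XI, 515063 to 516871), the general amino acid permease, measured 635, 526 and 551 CPM in the 1 L vessel against 176, 183 and 185 CPM (fell by 1.65 ± 0.17 SE, log2; adjusted p = 7.07e-08). MEP2 (YNL142W, chromosome XIV, 357453 to 358952), the high-affinity ammonium permease, measured 734, 1271 and 1242 CPM against 337, 360 and 379 CPM (fell by 1.59 ± 0.18). In 1 L replicate 1 MEP2 was lower than in the other 1 L libraries yet above all 3 mini-chemostat ones, and without it the fall was 1.81 (log2 difference of -1.81). The proline oxidase PUT1 fell by 1.45 ± 0.20, from 100.7, 92.8 and 96.6 CPM to 38.0, 34.8 and 33.5 CPM. Urea use fell at uptake and at breakdown: the urea transporter DUR3 measured 74.7, 119 and 110.5 CPM against 38.7, 43.5 and 41.0 CPM (-1.30 ± 0.23), and urea amidolyase DUR12 measured 348, 293 and 323 CPM against 121, 127 and 128 CPM (-1.36 ± 0.17).

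Of 37 genes under nitrogen catabolite repression, 18 fell and 1 rose, with a median of -0.36, beside 6% of all genes that fell. Allantoin and allantoate use fell in DAL5 (-1.21 ± 0.17), the ureidoglycolate lyase DAL3 (-1.08 ± 0.15) and the allantoicase DAL2 (-0.69 ± 0.15), and the GATA repressor DAL80 fell by 0.90 ± 0.25. Among enzymes that build glutamate and glutamine from ammonium, the glutamate dehydrogenases GDH3 (-0.93 ± 0.14) and GDH1 (-0.54 ± 0.13), the glutamate synthase GLT1 (-0.73 ± 0.09) and the glutamine synthetase GLN1 (-0.59 ± 0.10) fell. GDH2, which breaks glutamate down, fell too (-0.41 ± 0.13). GLT1 measured 2131, 2040 and 2267 CPM against 1263, 1335 and 1293 CPM, with no overlap. The peptide transporter PTR2 (-0.70), the arginine permease CAN1 (-0.36) and the ammonium permease MEP1 (-0.31) also fell. Of the GATA activators, GAT1 fell by 0.60 ± 0.12 whereas GLN3 was the gene that rose (0.25 ± 0.08, adjusted p = 0.0429). GLN3 measured 54.5, 55.2 and 48.7 CPM against 64.8, 60.1 and 63.9 CPM. In the leave-one-out fits 14 to 17 of the 37 fell.

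The windows before GAP1 and MEP2 are shown because these genes had the largest called falls of the nitrogen list. Capitals mark GATAAG on either strand (CTTATC on the strand shown), the site of the GATA factors, and a pair of the matches in MEP2 shares 1 base. Such a match is in the windows of 28 of the 37 nitrogen genes and of 16 of the 19 called ones, against 14.0% of the 5831 windows.
GAP1, chrXI:514663-514962, plus strand: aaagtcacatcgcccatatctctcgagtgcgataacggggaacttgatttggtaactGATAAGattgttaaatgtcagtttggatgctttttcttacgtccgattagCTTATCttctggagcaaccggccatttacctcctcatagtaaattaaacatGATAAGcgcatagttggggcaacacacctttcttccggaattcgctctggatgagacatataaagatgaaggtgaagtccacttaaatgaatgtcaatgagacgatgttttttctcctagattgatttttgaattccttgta
MEP2, chrXIV:357053-357352, plus strand: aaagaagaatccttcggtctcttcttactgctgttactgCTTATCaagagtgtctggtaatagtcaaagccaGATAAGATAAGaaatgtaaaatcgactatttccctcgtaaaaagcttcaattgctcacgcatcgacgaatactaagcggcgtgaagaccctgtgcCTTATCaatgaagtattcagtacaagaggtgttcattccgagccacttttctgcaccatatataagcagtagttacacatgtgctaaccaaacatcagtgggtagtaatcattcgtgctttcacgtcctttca

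Permeases outside the nitrogen list fell too. BAP2 (YBR068C), which imports leucine, isoleucine and valine, measured 108, 131 and 146 CPM against 47.7, 43.8 and 43.2 CPM (fell by 1.51 ± 0.13, adjusted p = 2.14e-09). Where 6% of all genes fell, 7 of 22 amino acid permeases fell and none rose (median -0.29). Beside BAP2 these were GAP1 and CAN1, both also counted in the nitrogen list. The others were the S-adenosylmethionine permease SAM3 (-0.55), AGP3 (-0.54), and the vacuolar carriers VBA1 (-0.53) and AVT1 (-0.31). The count was 4 without 1 L replicate 3, without mini-chemostat replicate 1 or without mini-chemostat replicate 2. Of 49 genes of amino acid synthesis 7 fell and 1 rose (median -0.11): the branched-chain aminotransferase BAT2 fell by 0.71 ± 0.11, the arginine genes ARG3 and ARG56 by 0.64 and 0.54, the leucine genes LEU9 and LEU4 by 0.61 and 0.45, the threonine deaminase ILV1 by 0.25, and their activator GCN4 by 0.27. ILV6 rose by 0.28. LEU9 measured 29.1, 65.2 and 64.7 CPM in the 1 L vessel and 34.3, 35.1 and 34.6 CPM in the mini-chemostat, so its groups overlapped through 1 L replicate 1. Without that library 17 of the 49 fell (median -0.19); without 1 L replicate 2, 2 fell and 4 rose.

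The genes that free the daughter cell from its mother fell as a group. Of 17 measured, 11 fell and none rose, with a median of -0.45. The count was 10 or 11 in every leave-one-out fit, and over all genes 6% fell. DSE4 (YNR067C, chromosome XIV, 755746 to 759099), a daughter-specific glucanase, measured 314, 237 and 273 CPM against 106, 123 and 128 CPM (-1.21 ± 0.17, adjusted p = 2.06e-05). DSE1, which acts in the same separation, measured 160, 151 and 193 CPM against 74.9, 82.3 and 83.0 CPM (-1.07 ± 0.14). The glucanase SCW11 (-1.02 ± 0.14), the chitinase CTS1 (-0.75 ± 0.12), which cuts the septum, and EGT2 (-0.75 ± 0.14) fell, with DSE2 (-0.80), DSE3 (-0.75) and SUN4 (-0.45). AMN1, which acts in daughter cells to switch off mitotic exit, measured 162.5, 167.5 and 176 CPM against 83.4, 82.1 and 84.1 CPM (-1.02 ± 0.12). Its neighbour ICS2 on the other strand fell by 1.09 ± 0.14. The daughter-specific repressor ASH1 fell by 0.41 ± 0.12. TAO3 fell by 0.31 ± 0.06, but its difference was 0.04 (adjusted p = 0.662) with the length trend described below taken out.

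The cell wall changed in both directions. CWP1 (YKL096W), a wall mannoprotein, measured 60.5, 48.9 and 50.5 CPM against 172, 186 and 181 CPM (1.75 ± 0.21, adjusted p = 9.72e-07), whereas its relative CWP2 fell by 0.48 ± 0.10, from 675, 714 and 739 CPM to 547, 508 and 474 CPM. SED1, an abundant wall protein of stationary cells, measured 1834, 1327 and 1535 CPM against 2918, 2467 and 2721 CPM (0.79 ± 0.16). The wall sensors WSC4 (0.91 ± 0.16) and WSC3 (0.76 ± 0.17) and the transcription factor RLM1 (0.28) rose. The glucan synthases GSC2 (-0.64 ± 0.12) and FKS1 (-0.53 ± 0.15), the chitin synthase CHS3 (-0.31) and the kinase BCK1 (-0.26) fell. Over all genes 5.82% rose and 6% fell. In the list of 23 cell wall integrity genes 5 rose and 4 fell (median 0.02), the falls numbering 2 without 1 L replicate 3 or mini-chemostat replicate 3. With the length trend taken out 5 rose and none fell, and GSC2 then had an adjusted p of 0.0506. FKS1 measured 818, 1357 and 1361 CPM against 844, 771 and 829 CPM, so its groups overlapped.

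**Figure D3:**
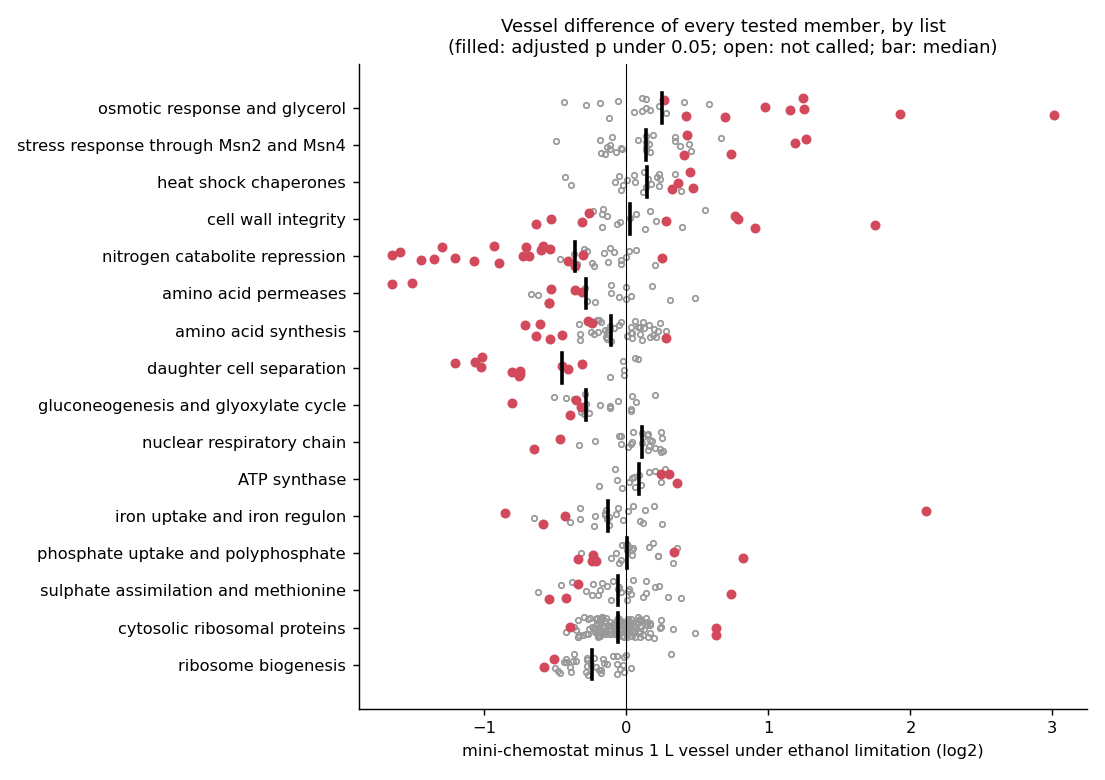
Vessel difference (log2) of every tested member of 16 gene lists, filled where called and open where not, with the median as a bar. The osmotic and glycerol list has a median of 0.25 and 9 called members above 0, while nitrogen catabolite repression (-0.36) and daughter cell separation (-0.45) lie mostly below 0.

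For general stress genes and for growth genes the result turned on 1 L replicate 1. Of 30 genes responding through Msn2 and Msn4, 5 rose and none fell in all 6 libraries (median 0.14), and 14 rose without that library (median 0.54), against 2 or 3 without any other single library and 2 with the length trend described below taken out. The catalase CTT1 measured 42.9, 15.3 and 21.1 CPM against 63.3, 56.9 and 61.4 CPM and rose by 1.19 ± 0.38, or by 1.74 without that library. The aldehyde dehydrogenase ALD3 (1.26 ± 0.29), the wall protein SPI1 (0.74), the peroxiredoxin PRX1 (0.42) and MSN2 itself (0.41 ± 0.08) were the others. MSN2 measured 74.5, 61.7 and 58.0 CPM against 88.2, 87.5 and 82.4 CPM. Among 20 desiccation and stationary phase genes GRE1 (0.99 ± 0.32) and FMP45 (0.95 ± 0.25) rose, against 6 without that library and 0 or 1 without any other. Over all genes 5.82% rose in the 6 libraries, and 468 of 6625 rose without 1 L replicate 1. Among 24 heat shock chaperones BTN2, SSA2, MDJ1 and FES1 rose by 0.32 to 0.47, against 5 without it, none without 1 L replicate 3 or mini-chemostat replicate 1, and 2 with the length trend taken out.

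Ribosome genes behaved likewise. Of 38 ribosome biogenesis genes UTP20 and RRP5 fell and none rose (median -0.24), and 14 fell without 1 L replicate 1 (median -0.41) and 1 without any other single library. UTP20, a component of the small subunit processome, measured 281, 479 and 508 CPM against 280, 287 and 281 CPM, so that 1 L replicate 1 matched the mini-chemostat level. Of 138 cytosolic ribosomal protein genes RPS22B (0.63 ± 0.13) and RPL41B (0.63 ± 0.18) rose and RPL4A fell by 0.40 ± 0.13, whereas 31 fell and 1 rose without that library (median -0.24 in place of -0.06) and at most 1 fell without any other. Purine synthesis had ADE12 (-0.42) and ADE6 (-0.36) lower and IMD2 higher (0.69 ± 0.19) of 22, and 10 lower without that library against 0 or 1 without any other. Of 33 proteasome genes PUP3 and RPN10 rose, and 8 rose without it, against 0 to 2 without any other. Over all genes 5.82% rose and 6% fell in the 6 libraries, and 468 rose and 518 fell of 6625 without 1 L replicate 1. What sets that culture apart was not tested.

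Few genes of ethanol use and central metabolism were called, but the gluconeogenesis and glyoxylate list leaned lower. Of 22 gluconeogenesis and glyoxylate genes 4 fell and none rose (median -0.29): the lactate and pyruvate permease JEN1 (-0.80 ± 0.27), ICL2 (-0.40), the aconitase ACO1 (-0.36) and the pyruvate carboxylase PYC2 (-0.32). JEN1 measured 2449, 1885 and 2371 CPM against 1312, 1243 and 1288 CPM, with no overlap. The count was 1 without any single mini-chemostat library or without 1 L replicate 3, and 0 with the length trend taken out. Over all genes 6% fell. In 13 of the 22 every mini-chemostat library was below every 1 L one, against 14.4% of all genes. Of 20 genes for ethanol and acetate use, ATO2, of the family of acetate and ammonium carriers, measured 358, 443 and 459 CPM against 191, 156 and 169 CPM (-1.29 ± 0.26, adjusted p = 0.00103). JEN1 is in that list as well, ALD3 (above) rose, and ADH1, the main fermentative alcohol dehydrogenase, rose by 0.41 ± 0.12. TDH2, a glyceraldehyde 3-phosphate dehydrogenase with near-identical paralogs, rose by 0.83 ± 0.20, from 109, 108 and 111 CPM to 220, 181 and 184 CPM. HXT6, a high-affinity hexose transporter whose reads cannot be separated with certainty from its near-identical paralog HXT7, measured 11.6, 6.46 and 11.3 CPM against 1.86, 2.56 and 1.72 CPM (-2.24 ± 0.63, adjusted p = 0.0171). PDR12, which exports weak organic acids, fell by 1.43 ± 0.22, from 105, 109 and 167 CPM to 43.0, 46.5 and 51.7 CPM. Of 26 nuclear respiratory chain genes only the external NADH dehydrogenases NDE2 (-0.65 ± 0.18) and NDE1 (-0.47 ± 0.12) were called, and of 17 ATP synthase genes TIM11, ATP15 and ATP16 rose by 0.25 to 0.35. With single libraries left out these counts ranged from 0 to 2 and from 0 to 4, being 0 in the second case without 1 L replicate 1 or mini-chemostat replicate 1.

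In the mitochondrial genome ATP8, a subunit of the ATP synthase, measured 7.15, 14.98 and 11.6 CPM against 0.99, 0.76 and 1.23 CPM (-3.50 ± 0.41, adjusted p = 8.63e-07). VAR1, the ribosomal protein that mitochondria encode, measured 62.1, 93.3 and 88.9 CPM against 18.5, 17.5 and 23.5 CPM (-2.04 ± 0.31). These were the only called genes among the 8 proteins in the list of mitochondrially encoded genes, and 6 of 28 tested lines of the mitochondrial genome fell, none rising. Where 5.82% of all genes rose and 6% fell, small RNA genes rose in 19 of 86 and fell in none, with a median of 0.40. Their summed share of reads moved the same way (above), and the count was 12 without 1 L replicate 1, 12 without mini-chemostat replicate 1 and 8 without mini-chemostat replicate 3.

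HAP1, the gene that carries the tag, was lower in the mini-chemostat, at 268, 216 and 272 CPM against 162, 170 and 158 CPM (-0.63 ± 0.11, adjusted p = 0.000296). The untagged mini-chemostat libraries had 175, 161 and 186 CPM. Among 21 genes of Hap1 and haem, CTT1 and the porphobilinogen deaminase HEM3 (0.36) rose (0 rose without mini-chemostat replicate 1 or with the length trend taken out, and 1 or 2 without another single library), and HAP1, the sterol demethylase ERG11 (-0.43 ± 0.12) and HEM14 (-0.29) fell. ERG11 measured 911, 853 and 900 CPM against 670, 654 and 659 CPM in the tagged mini-chemostat, and 991, 752 and 832 CPM in the untagged one, which overlapped the 1 L range. ERG1 (-0.50) and ERG6 (-0.26) also fell, so 3 of 25 ergosterol genes did, beside 6% of all genes that fell. Lipid synthesis fell in 5 of 20 genes, the fatty acyl-CoA synthetase FAA3 (-0.62 ± 0.08), the fatty acid synthase FAS1 (-0.35) and FAS2 (-0.48), and the carboxylases ACC1 (-0.46) and HFA1 (-0.22), while the elongase ELO1 rose by 0.53. Of these 5, FAA3 alone remained called with the length trend taken out. With single libraries left out, 1 to 3 ergosterol genes and 2 to 6 of the lipid synthesis genes fell, fewest without mini-chemostat replicate 1 for the latter, and 1 to 4 of the Hap1 and haem genes.

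Nutrients other than nitrogen gave scattered calls, where 5.82% of all genes rose and 6% fell. Beside FIT1, 3 of 26 iron genes fell: the reductase FRE2 (-0.86 ± 0.13), the siderophore carrier SIT1 (-0.59) and the permease FTR1 (-0.44), with 5 falling without 1 L replicate 1 and 1 without 1 L replicate 2 or 3. FTR1 measured 151, 211 and 205.5 CPM against 134, 143 and 143 CPM. The copper transporter CTR1 (0.42), the zinc-regulated genes ZPS1 (0.51) and IZH1 (0.49) rose and the copper reductase FRE7 fell by 0.77 ± 0.15. Polyphosphate synthesis fell slightly in VTC2 (-0.34), VTC4 (-0.24) and VTC3 (-0.23), with PHO87 (-0.21), while PHM6 (0.82) and PHO4 (0.34) rose. BIO5, a gene of the biotin pathway, fell, at 35.96, 46.99 and 39.1 CPM against 18.3, 23.99 and 18.8 CPM (-0.9997 ± 0.13, adjusted p = 4.07e-06). The thiamine transporter THI7 fell by 0.79 ± 0.14 and the thiazole synthase THI4 rose by 1.19 ± 0.24. In the leave-one-out fits 2 to 4 phosphate genes fell, and 2 to 4 of the copper and zinc genes rose. With the length trend described below taken out, 2 phosphate genes fell and 2 rose. The histone genes HTA1 and HTA2, whose reads may mix, fell by 0.53 and 0.48, and the cell cycle inhibitor WHI5 rose by 0.76 ± 0.15.

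Gene length moved with the vessel difference. Among 5831 nuclear reading frames with a RefSeq length, the median difference went from 0.09 for those of up to 500 bases to -0.29 for the 148 longer than 4500 bases. Of these 148, 86 fell and none rose, while of 1505 frames of over 500 and up to 1000 bases 139 rose and 25 fell. The frames over 4500 bases had a median deviation from the 9 ethanol libraries of 0.20, 0.15 and 0.18 in the 1 L vessel and of -0.12, -0.09 and -0.08 in the tagged mini-chemostat, without overlap. With a smooth trend on length taken out of every library, an alternative added after the data were seen, 522 genes were called, 458 of them among the 782 and in the same direction. At least 2-fold differences were then called for 77 genes, and 5 frames over 4500 bases fell and 2 rose. Of the lists above, 10 osmotic and glycerol genes then rose and 1 fell, 17 nitrogen genes fell, 10 daughter separation genes fell and 7 amino acid permeases fell, while none of the ribosome biogenesis genes fell, no proteasome gene rose, and 1 ATP synthase gene rose in place of 3. FAS1 then had a difference of -0.04 and ACC1 one of -0.13, in place of -0.35 and -0.46, while the difference of STL1 had 3.03.

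**Figure D4:**
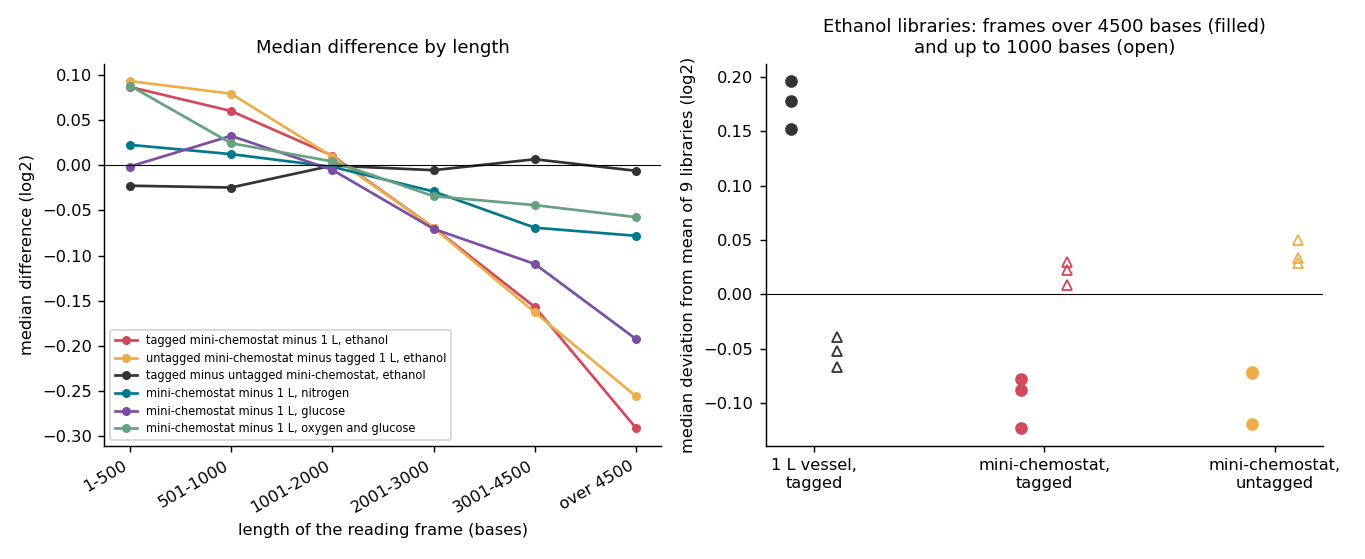
Left, median difference (log2) by length of the reading frame (bases) for 6 comparisons; right, median deviation (log2) of long (filled) and short (open) frames in each of the 9 ethanol libraries. Long frames reached -0.29 between the vessels for the tagged strain under ethanol limitation and -0.01 between the tagged and untagged strain in the mini-chemostat.

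The untagged strain in the mini-chemostat was set beside the tagged one against the same 3 libraries of the 1 L vessel, which both comparisons share. Against them 1192 of 6600 genes (18.1%) were called for the untagged strain, 622 higher (9.42%) and 570 lower (8.64%), and this comparison also differs by strain. STL1 measured 1184, 1169 and 976.5 CPM in the untagged libraries (2.70 above the 1 L vessel, log2), GAP1 188, 228 and 198 CPM (-1.48) and SUC2 816, 651 and 594 CPM (1.83). By list, 11 osmotic and glycerol genes were higher and 2 lower, 17 nitrogen genes lower, and 9 daughter separation genes lower. Other lists differed from the tagged comparison: 2 permeases were higher and 4 lower (0 and 7 for the tagged strain), heat shock chaperones 0 and 2 (4 and 0), and mitochondrially encoded genes 5 and 2 (0 and 2). Mitochondrially encoded genes took 43.4 ± 3.10% of the reads in the untagged libraries, above the tagged share given above, and their part in these counts was not tested. DSE4 measured 199, 156 and 156 CPM, between the tagged mini-chemostat and the 1 L vessel (-0.69). Between the tagged and untagged strain in the mini-chemostat, 9 of 6600 genes (0.136%) were called by edgeR, 7 higher (0.106%) and 2 lower (0.0303%) in the tagged strain: the nuclear genes MRP7, MSD1 and OMS1 for mitochondrial proteins and 4 small nucleolar RNAs higher, and CSN9 and YOL075C lower. These were chosen after their values were seen. DESeq2 called 83, and edgeR 60 without untagged replicate 2.

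Under the other limitations the same pair of vessels and strain gave 1211 calls for nitrogen (18.3%, 10.6% higher and 7.74% lower), 1397 for glucose (21.1%, 9.21% higher and 11.9% lower) and 1166 for oxygen with glucose (17.6%, 8.91% higher and 8.73% lower). Whether the ethanol difference departs from the mean of the other 3 was tested directly, and 315 of 6612 genes (4.76%) were called, 143 with a higher difference (2.16%) and 172 with a lower one (2.6%). The count was 168 without 1 L ethanol replicate 3, 147, 172 and 145 without mini-chemostat ethanol replicates 1, 2 and 3, and 564 without nitrogen-limited mini-chemostat replicate 3. STL1 rose under every limitation, by 3.01 on ethanol, 1.75 on glucose, 1.04 on nitrogen and 0.92 on oxygen with glucose, and the ethanol value was 1.78 ± 0.29 above the mean of the others (adjusted p = 0.000424). SUC2 was called on ethanol alone of the 4 (0.31, 0.51 and 0.04 on nitrogen, glucose and oxygen with glucose) and departed by 1.58 ± 0.22 (adjusted p = 0.000129). FIT1 and PRM10 each departed by 1.39, and both were also called higher on glucose (0.70 and 0.89). BAP2 fell on ethanol, had differences of 0.11 and -0.04 on nitrogen and glucose, and rose by 0.83 on oxygen with glucose, a departure of -1.81 ± 0.14 (adjusted p = 1.58e-09). ATP8 departed by -2.23 ± 0.48, but it was also called lower on glucose (-2.59). Its differences of -0.86 on nitrogen and -0.34 on oxygen with glucose were not called.

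Some departures came from genes that were not called on ethanol. Of 4 such genes named by rule, none was called on glucose either. SIP18, a desiccation protein, had a difference of 0.19 ± 0.35 on ethanol against 0.25 on glucose, 4.49 on nitrogen and 3.03 on oxygen with glucose (departure -2.40 ± 0.44, adjusted p = 0.00167). It measured 104, 36.1 and 64.5 CPM in the 1 L vessel and 87.8, 69.9 and 76.4 CPM in the mini-chemostat. The small heat shock protein HSP26 measured 2037, 708 and 1124 CPM against 1024, 932 and 914 CPM (-0.43 ± 0.37), with 1 L replicate 1 above and replicate 2 below the mini-chemostat, and departed by -1.995 ± 0.43. On glucose, nitrogen and oxygen with glucose the HSP26 difference was -0.37, 3.37 and 1.69. The hexose transporter HXT5 departed by -1.89 ± 0.29 and the sporulation gene SPS4 by 1.74 ± 0.30, with 0.21 and 0.33 on ethanol. On glucose, nitrogen and oxygen with glucose HXT5 had 0.16, 3.56 and 2.56, and SPS4 -0.52, -1.42 and -2.29.

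By list, the daughter separation genes fell under every limitation, 11 of 17 on ethanol, 12 on nitrogen, 10 on glucose and 12 on oxygen with glucose, with 1 rise on oxygen with glucose. Of these genes 1 departed downwards and 1 upwards, where 2.6% of all genes departed downwards and 2.16% upwards. Nitrogen genes fell in 18, 13, 13 and 9 of 37, in the same order, and rose in 1, 5, 2 and 2, with 8 departing downwards and 1 upwards, among them GAP1, MEP2, PUT1, DUR12, DUR3 and DAL5. Of 22 amino acid permeases 7, 5, 3 and 3 fell and 0, 3, 10 and 6 rose, in the same order, and 7 departed downwards. Osmotic and glycerol genes rose in 9, 13, 5 and 9 of 24 and fell in 0, 0, 1 and 1, with 3 departing upwards and 2 downwards. Cytosolic ribosomal protein genes fell in 1, 0, 1 and 88 of 138 and rose in 2, 4, 4 and 1, and none departed from the mean of the others. Genes responding through Msn2 and Msn4 rose in 5 of 30 on ethanol, 21 on nitrogen, 1 on glucose and 12 on oxygen with glucose, fell in 8 on glucose and in none on the others, and 3 departed downwards.

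**Figure D5:**
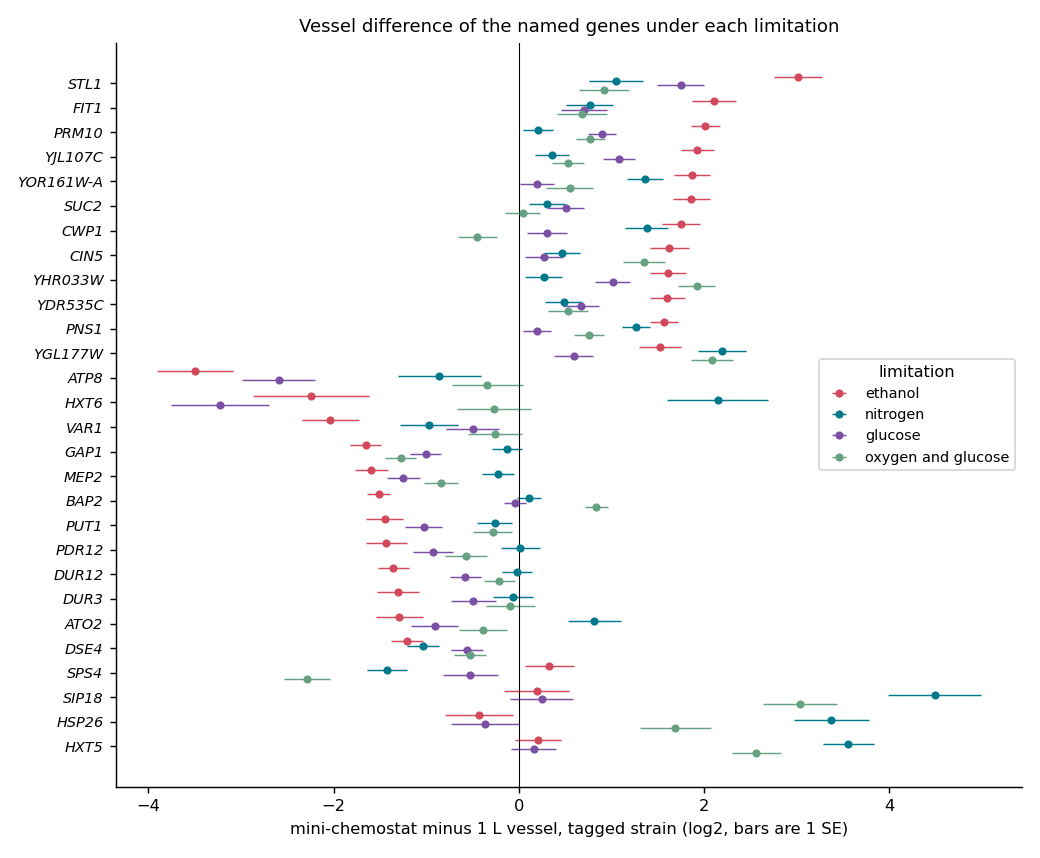
Vessel difference (log2 ± SE, mini-chemostat minus 1 L vessel, tagged strain) of the genes named by rule under the 4 limitations. STL1 lies at 3.01 on ethanol and between 0.92 and 1.75 elsewhere, while SIP18 lies at 0.19 on ethanol and at 4.49 on nitrogen.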

How the data were processed

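Per the labels' protocols, an RNeasy kit gave the RNA and the libraries were stranded and depleted of ribosomal RNA. The deposited values used were raw counts, 1 whole number for each gene and library. Per the submitters' processing notes, Bowtie2, SAMtools and bedtools were used on build R64, and neither their versions nor the counting rule is known here. Columns the authors named CPM were not used. Of the 7122 gene lines, 6612 passed edgeR's default filter on low counts. The 36 libraries of 12 groups of 3 were fitted in 1 model with edgeR 4.0.16 in R 4.3.3 (TMM factors, quasi-likelihood F test, 24 residual degrees of freedom, Benjamini-Hochberg adjustment, threshold 0.05). Differences are log2 with standard errors, and CPM was recomputed on TMM-scaled library sizes. On simulated data for the ethanol vessel contrast, 95% of 2-fold and 77% of 1.5-fold changes were recovered over 6597 genes, with 14 false among 186 calls. That simulation held no trend on length. With such a trend of a chosen slope added, and length ignored as in the main fit, 100 of 281 calls were false. A false call there was any gene outside those changed on purpose, so genes moved by the added trend counted. The number depends on the slope chosen and gives no false rate for the real calls. With the trend taken out, 6 of 182 were false.

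RefSeq locus tags matched 6045 lines and gave names, coordinates and lengths in R64. In the untagged comparisons 12 small RNA lines that stand out of place in those tables were left out of counts after the fit. Named genes were the 12 largest and 12 smallest called differences among genes with a mean of at least 5 CPM over the 6 libraries whose 3 and 3 libraries did not overlap (small RNA, tRNA and ribosomal RNA genes and Ty elements are given as classes), the 5 highest and 5 lowest departures of ethanol from the other limitations, and members of 49 gene lists. Members, lists and tests were chosen with earlier results of these data known. Lists are described by counts and medians. Alternatives covered scaling, filters, depth, the libraries fitted, DESeq2 1.42.0, a replicate block, single libraries left out and, added later, a trend on gene length. Same-numbered libraries of the 2 vessels did not deviate together (r of -0.215, -0.047 and -0.087), and the main fit did not pair them. Correlations of deviations from means of 3 libraries cannot exclude a shared run.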

Additional observations from a re-analysis of the deposited data

Results flagged for a closer look

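The test of the difference between limitations called 315 genes whose vessel difference on ethanol departed from the mean of the other 3 limitations. Of the genes named by rule, 24 were among them. Some of these were named for the departure itself. The rest were named for a large ethanol difference, which enters the departure. The count of 24 is therefore not independent of how the genes were chosen. Departures upwards (log2) were 1.78 for STL1, 1.74 for SPS4, 1.58 for SUC2, 1.39 for FIT1, 1.39 for PRM10, 1.34 for CWP1, 1.27 for YJL107C, 1.17 for YOR161W-A, 1.05 for YDR535C, 0.93 for CIN5 and 0.82 for PNS1. Departures downwards were -2.40 for SIP18, -2.23 for ATP8, -2.0 for HSP26, -1.89 for HXT5, -1.81 for BAP2, -1.46 for VAR1, -1.13 for ATO2, -1.09 for DUR12, -1.09 for DUR3, -0.94 for PDR12, -0.92 for PUT1, -0.85 for GAP1 and -0.82 for MEP2. For SIP18, HSP26, HXT5 and SPS4 the ethanol difference itself was not called. A departure does not mean a difference on ethanol alone, which was called for SUC2 and DUR3. GAP1 also fell on glucose (-1.01) and on oxygen with glucose (-1.28), and so did MEP2 (-1.25 and -0.84). PUT1 and PDR12 also fell on glucose (-1.03 and -0.93). On nitrogen CWP1, PNS1 and YOR161W-A also rose (1.38, 1.26 and 1.36). Every departure uses the ethanol libraries of the 1 L vessel, in which replicate 1 stood apart, and 353 genes departed without that library, 168 without replicate 3, and 145 to 172 without any 1 of the mini-chemostat ethanol libraries.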

How the results depend on the processing

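Of all 190 gene results followed, those of genes named by rule and of called list members, 91 kept direction and call status under every alternative. Of the 24 largest rises and falls on ethanol, 23 kept their direction and their call under every alternative that gave them a value, and HXT6 in 14 of 17 (highest adjusted p 0.0681). These 24 were chosen as the largest called differences without overlap between libraries, so keeping their direction was largely set by that choice. With only the libraries compared in the fit, calls numbered 422 between the vessels, 136 for the departure from other limitations, 472 for the untagged strain against the 1 L vessel, 25 for tag against no tag, 4 for amino acid permeases and 43 for frames over 4500 bases. With the replicate block the vessel calls were 644 and the departures 209, and the block moved no other count by over 1.5 times. Whether same-numbered libraries share a run is not known. For tag against no tag, nuclear reading frames alone gave 1 call, leaving out the 12 displaced lines before the fit and adjustment, not after them, 4, and DESeq2 83. With the length trend taken out, frames over 4500 bases fell in 5, and TAO3 and HFA1 turned to 0.043 and 0.10. With 1 library left out at a time, calls ranged from 466 to 986 between the vessels, 145 to 564 for the departure (libraries named above), 719 to 1233 for the untagged strain (719 without untagged replicate 1), 4 to 60 for the tag, 4 to 7 for permeases and 8 to 20 for small RNA genes. HSP26 ranged from -0.72 to 0.062 (reversed without 1 L replicate 1) and SIP18 from -0.11 to 0.64 (reversed without 1 L replicate 2). The cause of these moves was not tested beyond the fewer libraries or genes fitted. Depth limited little: thinned to 10700506 counts each, the libraries gave 648 vessel calls.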
